A study of Mus musculus with 10 samples.

Results

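The genes described here build, feed and shape mitochondria: the subunits of the protein import machinery, the chaperones and proteases of the matrix and inner membrane, the proteins that fuse and divide the organelle or fold its inner membrane, the channels of the outer membrane, and the factors that keep mitochondrial DNA. They were chosen by symbol, as every gene named Timm or Tomm followed by a digit together with Hspd1, Hspe1, Hspa9, Mfn1, Mfn2, Opa1, Dnm1l, Immt, Phb, Phb2, Vdac1, Vdac2, Vdac3, Lonp1, Clpp, Yme1l1, Tfam and Polg. The rule found 41 of the 13091 genes in the tables, 23 by the Timm and Tomm names and all 18 of those named individually.

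The RNA came from neutrophils grown from bone marrow progenitors of 129-SVEV mice that were immortalised with the transcription factor HoxB8 and then differentiated in culture. The study's methods describe the lines as clones. Libraries were made unstimulated and after treatment with lipopolysaccharide (LPS, a component of the bacterial outer membrane) at 25 ng/mL for 1 hour. The 4 groups therefore held 2 unstimulated Vim+/+, 2 LPS-treated Vim+/+, 3 unstimulated Vim-/- and 3 LPS-treated Vim-/- libraries, 10 in all, and all of them share the HoxB8 construct and the culture. The titles give each LPS-treated library the biorep number of an unstimulated library of its genotype. The numbers are 1 and 3 for Vim+/+, and 1, 2 and 3 for Vim-/-. Whether a biorep is a clone, a culture or a mouse is not said. The labels call the vimentin-negative cells a knockdown, while the study's methods describe bone marrow of knockout mice. Vimentin is an intermediate filament protein that surrounds and anchors organelles.

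For each gene, the value used here is the authors' mean normalised count over the libraries, referred to as its level. It was the same in all 4 deposited tables for all 13091 genes. It pools both genotypes and both treatments and has no spread, so values per library, differences between Vim+/+ and Vim-/- neutrophils and responses to LPS are not analysed here, and no order between neighbouring genes could be tested. In bulk RNA, fewer cells of a type and less RNA per cell cannot be told apart. Levels of single members are compared with each other per kilobase (kb) of the longest annotated transcript unless another length is named. Levels not divided by length are given as such, for shares, counts and ranges, and also reflect transcript length. A percentile of a level gives the share of the 13091 genes at or below it, and a percentile per kb the share of the 12048 genes matched to a transcript length, or of those with a coding length.

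Nearly all mitochondrial proteins are made in the cytosol. The TOM complex carries them through the outer membrane, the TIM23 complex takes those with a leader peptide through or into the inner membrane, and the TIM22 complex inserts carrier proteins that the small TIM chaperones bring to it. Neutrophils are known for a low content of mitochondria and a reliance on glycolysis, yet they keep a mitochondrial network that matters for movement and for cell death.

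Most of the 41 genes were more abundant than the typical gene of these neutrophils. Per kb, 32 of 41 lay above the median gene (309.4 per kb), 18 lay above the 75th percentile, and their median was 829.8 per kb, at the 71.0th percentile. By level without regard to length, 30 were above the median gene and 11 at or below it, 14 were above the 75th percentile, and 1, Vdac2, was above the 90th. Their levels summed to 117850, which was 0.212% of the sum over all genes from 0.313% of the genes. Vdac2 alone held 14.3% of that sum and the top 5 genes 37.1%. The spread among them was wide: the highest level per kb was 346-fold the lowest, that of the antisense gene Tomm6os (23.9 per kb). The lowest protein-coding member was Timm9, at 59.5 per kb. Per kb of coding sequence the range was from 347.0 (Mfn1) to 33084 (Tomm6). The 41 genes were shorter than usual, with a median coding length of 834 bases against 1377 bases for all genes, and by coding length their median stood at the 70.5th percentile.

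The genes fell into 9 role groups, beside Tomm6os, an antisense gene kept by the rule. By median level per kb, the VDAC channels came first at 2775 (89.2nd percentile) and the matrix chaperones second at 2240.3 (86.7th). The genes grouped with the TOM complex, Tomm34 and Tomm40l included (1070.0 per kb, 75.8th), the cristae and prohibitin genes (1037 per kb, 75.2nd) and the proteases (1037 per kb, 75.2nd) lay close together. The TIM23 complex (662.6 per kb, 65.5th) and the fusion and fission genes (441.0 per kb, 57.3rd) were nearer the median gene. Per kb of coding sequence, the TIM23 complex (2574, 70.5th) stood above the cristae and prohibitin genes (2069.8, 69.5th) and the proteases (1769.6, 66.6th). The TIM22 and small TIM genes (322.0 per kb, 50.8th) were at it per kb of the longest transcript, but at 1559 per kb of coding sequence (63.9th) were above it, where the fusion and fission genes were at the 50.8th percentile. By the longest transcript the genes of mitochondrial DNA (263.6 per kb, 45.4th) were below it, though at the 50.8th percentile per kb of coding sequence.

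**Figure D1:**
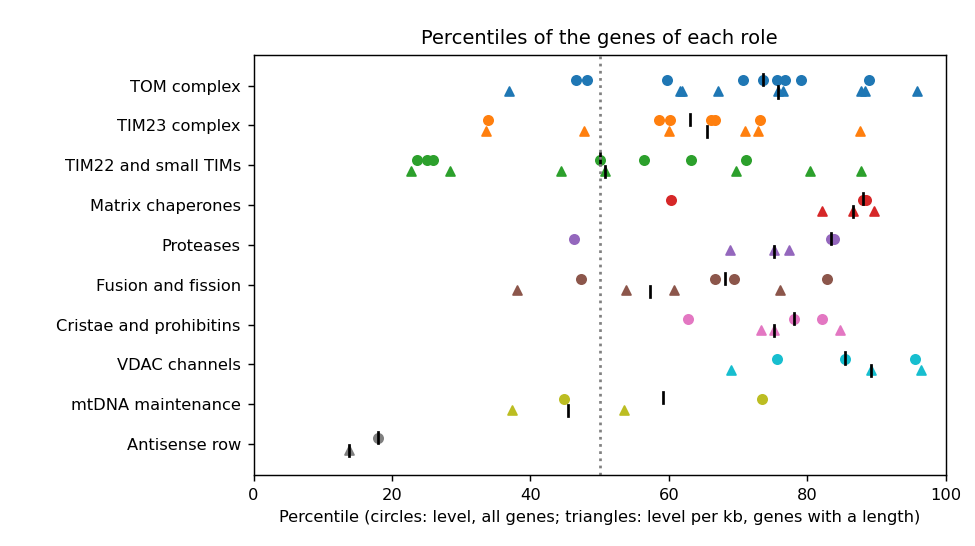
Percentile of each gene by role, with circles for level (among all genes of the tables) and triangles for level per kb of the longest transcript (among those with a length); black ticks are group medians and the dotted line is the 50th percentile. All 3 VDAC genes and all 3 chaperones lie right of the line, and the 7 TIM22 and small TIM genes spread from the 22.7th to the 87.8th percentile per kb.

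The 9 genes grouped here with the TOM complex ran from 157.7 to 7083 per kb. Tomm6, a small subunit that helps hold the complex together, was highest at 7083 per kb (level 7345, 95.9th percentile per kb). Tomm7, another small subunit, stood at 2546 per kb and Tomm22, the central receptor, at 2415 per kb. Tomm5, the remaining small subunit, was at 1108 per kb. The 3 small subunits of the same complex thus ran from 1108 to 7083 per kb.

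The channel itself, Tomm40, was at 534.2 per kb (61.9th percentile), and the ratio of Tomm22 to Tomm40 was 4.52 per kb of the longest transcript, 2.69 with the principal transcript and 6.52 per kb of coding sequence. Tomm20, the receptor for leader peptides, was at 683.9 per kb. Tomm70a, the table's name for the receptor of carrier proteins and of their cytosolic chaperones, was at 530.0 per kb. These 3 had similar levels per kb of the longest transcript, but Tomm20 has a coding length of 435 bases in a transcript of 4902, and per kb of coding sequence it stood at 7707 against 1364 for Tomm40 and 1724 for Tomm70a. Tomm34, a cytosolic helper of import, was at 1070.0 per kb. Tomm40l, a paralogue of the channel, was lowest of the TOM genes at 157.7 per kb (36.9th percentile). Tomm20l, a paralogue of Tomm20, was not among the genes of the tables.

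Tomm6os, annotated antisense to Tomm6, had the lowest level of the 41 (70.4, and 23.9 per kb, 13.7th percentile). The exons of Tomm6os and Tomm6 overlap by 219 bases on chromosome 17, and 76.0% of the exon bases of Tomm6 also lie in Gm21981, a gene annotated on the same strand. Whether the authors counted by strand is not given in the sources used here, so reads of overlapping genes cannot be told apart.

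In the TIM23 complex, Timm23, the subunit for which it is named, led with 2395 per kb (87.6th percentile). Timm50, the receptor that takes over proteins from the TOM complex, was at 921.7 per kb. Timm44, which tethers the import motor to the channel, was at 495.4 per kb. The channel subunit Timm17 has 2 genes. Timm17b was at 829.8 per kb and Timm17a at 278.9 per kb, with levels of 1976 and 2030. The longest transcript of Timm17a has 7280 bases against 2381 for Timm17b, and per kb of coding sequence they stood at 3829 and 3958. Timm21, which links the complex to the TOM side, was lowest at 130.2 per kb (33.6th percentile).

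The TIM22 route held both abundant and scarce genes. Timm8b (2426 per kb, 87.8th percentile) and Timm13 (1410 per kb, 80.4th), whose kind form a chaperone hexamer in the space between the membranes, were high. Timm9 (59.5 per kb, 22.7th percentile) and Timm10 (236.0 per kb, 44.4th), which form the other hexamer, were low, with levels of 152.5 and 162.9. Timm8a1, the paralogue of Timm8b, was also low at 91.3 per kb (level 129.7). Timm10b, which docks the hexamer on the TIM22 complex, was at 774.4 per kb with a level of 2535, and Timm22, the insertion channel, was at 322.0 per kb with a level of 907.1. Per kb of coding sequence Timm10b was highest of this group at 8283, above Timm13 at 6060 and Timm8b at 5047.

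Timm8a1, Timm9, Timm10 and Tomm6os were the 4 of 41 with a level below 200. Timm8a1, Timm9 and Timm10 also stayed under the median gene per kb of coding sequence, at the 37.8th, 42.1st and 43.4th percentiles. Timm29, a further TIM22 subunit, was listed under its older symbol 1810026J23Rik with a level of 1821 and is not a member by the rule. Timm8a2 was not among the genes of the tables.

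The 3 matrix chaperones were all high. Hspd1 (Hsp60), the folding chamber of the matrix, was at 2917 per kb (89.7th percentile), and Hspa9 (mitochondrial Hsp70), which is the import motor and also folds proteins, was at 2240.3 per kb (86.7th). Hspe1 (Hsp10), the lid of the chamber, was at 1577 per kb (82.1st). The ratio of Hspd1 to Hspe1 was 1.85 per kb of the longest transcript, 1.49 with the principal transcript and 0.828 per kb of coding sequence, so its direction depended on the length used.

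Hspd1 and Hspe1 lie head to head on chromosome 1. In the GENCODE M21 annotation (GRCm38), Hspd1 spans chr1:55077835-55088243 on the minus strand and Hspe1 spans chr1:55088132-55091307 on the plus strand, and their exons overlap by 112 bases. The promoter window of Hspe1 in RefSeq (GRCm38.p6, plus strand, chr1:55087898-55088197, from 250 bases before to 50 after the start) is shown because it holds the letters of a heat shock element in the stretch between an Hspe1 start and an internal Hspd1 start. The capitals mark the match to GAANNTTC, the core of the site bound by heat shock factors.

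Hspe1 promoter: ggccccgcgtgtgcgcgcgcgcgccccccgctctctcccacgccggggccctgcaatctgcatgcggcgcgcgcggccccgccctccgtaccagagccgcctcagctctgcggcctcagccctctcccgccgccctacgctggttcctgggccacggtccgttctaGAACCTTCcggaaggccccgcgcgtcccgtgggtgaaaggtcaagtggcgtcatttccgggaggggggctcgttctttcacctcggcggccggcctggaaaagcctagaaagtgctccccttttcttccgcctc

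The element lies at chr1:55088064-55088071, 84 bases upstream of this Hspe1 start, and inside the GENCODE span of Hspd1. RefSeq gives 2 Hspd1 starts. The element lies 139 bases upstream of the internal start, whose window is chr1:55087883-55088182, and is not in the window of the other start, chr1:55088194-55088493. Of the 41 genes, 35 had a promoter entry, and the letters GAANNTTC stood in those of Hspd1, Hspe1 and Timm9. That was 8.57% of them, against 7.20% of the 9778 genes of the tables with an entry.

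Among the proteases, Lonp1, the main protease of the matrix and a binder of mitochondrial DNA, was at 1155 per kb (77.3rd percentile). Yme1l1, the inner membrane protease that cuts Opa1 and degrades import subunits, was at 1037 per kb (75.2nd), and Clpp, the barrel-shaped protease of the matrix, was at 748.2 per kb (68.8th). The ratio of Lonp1 to Clpp was between 1.54 and 2.28 under the 3 lengths.

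Of the fusion and fission genes, Mfn2, a mitofusin that joins outer membranes and tethers mitochondria to the endoplasmic reticulum, was highest at 1088 per kb (76.1st percentile). Its paralogue Mfn1 was lowest at 169.1 per kb (38.0th). The ratio of Mfn2 to Mfn1 was 6.43 per kb of the longest transcript and 5.99 per kb of coding sequence, with levels of 4722 and 771.4. Dnm1l (Drp1), the GTPase that divides mitochondria, was at 511.7 per kb, and Opa1, which fuses the inner membrane, was at 370.3 per kb. Of the 4, Mfn1 was the member under the median gene per kb of the longest transcript.

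Among the genes that shape the inner membrane, Phb2 was at 1898 per kb (84.7th percentile) and its partner Phb, with which it forms ring scaffolds, at 938.8 per kb (73.4th). The ratio of Phb2 to Phb was above 1 under all 3 lengths, from 2.02 to 3.64. Immt (Mic60), the core of the complex at cristae junctions, was at 1037 per kb (75.2nd percentile).

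The VDAC channels pass metabolites through the outer membrane, and Vdac1 is also a docking site for hexokinase. Vdac2 had the highest level of the 41 (16859, and 8268 per kb, 96.4th percentile), with Vdac1 at 2775 per kb (level 5612) and Vdac3 at 753.7 per kb (level 3146). Tomm6 stood above Vdac2 per kb of the principal transcript (9806 against 8628) and of coding sequence (33084 against 19050). The ratio of Vdac2 to Vdac1 barely moved with the length used, from 2.98 to 3.11. That of Vdac2 to Vdac3 ran from 3.71 to 10.97 and that of Vdac1 to Vdac3 from 1.19 to 3.68, and the longest transcript of Vdac3 has 4174 bases against 2039 for Vdac2 and 2022 for Vdac1. The order Vdac2, Vdac1, Vdac3 was the same under all 3 lengths.

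For mitochondrial DNA, Polg, the catalytic subunit of its polymerase, was at 364.8 per kb (53.5th percentile). Tfam, which packs the DNA and starts its transcription, was at 162.4 per kb (37.3rd). By coding length Tfam stood at the 52.6th percentile and Polg at the 48.9th, so their order also depended on the length.

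**Figure D2:**
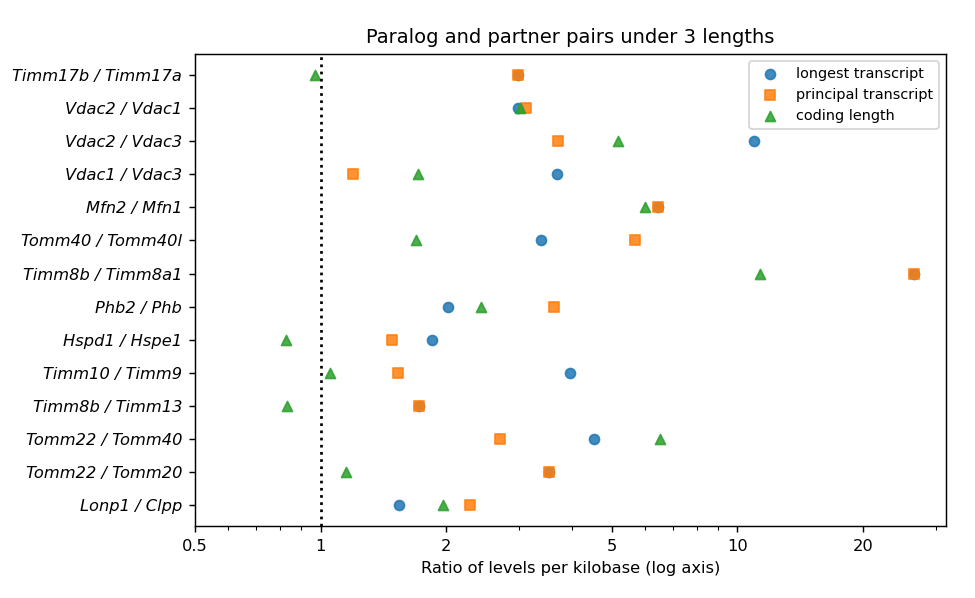
Ratio of the level per kb between paralogues or partners (log axis) under 3 lengths, with circles for the longest transcript, squares for the principal transcript and triangles for the coding length; the dotted line marks equal levels. The Vdac2 to Vdac1 and Mfn2 to Mfn1 ratios barely move, while the Timm17b to Timm17a, Hspd1 to Hspe1 and Timm8b to Timm13 ratios cross 1 with the coding length.

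Among the paralogue pairs, the ratio of Timm8b to Timm8a1 was the widest at 26.6 per kb (11.3 by coding length), and that of Tomm40 to Tomm40l was 3.39 (5.69 with the principal transcript and 1.70 by coding length). The coding sequences of the 9 paralogue pairs compared were 60.1% to 72.7% identical in a global alignment. The longest run of bases shared by the transcripts of such a pair was 47 bases, in Timm17a and Timm17b, and the others shared at most 21. The reads were 150 bases long at each end before trimming, and the lengths of the aligned reads are not known here.

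Overlapping genes bear on some of these levels. Exons of 18 of the 41 genes overlap those of another gene, but for 13 of the 18 the overlap is at most 10% of their exon bases. Of the other 5, Tomm40l shares 64.3% of its exon bases with Nr1i3 on the opposite strand, Timm8b shares 15.6% with Nkapd1 and Timm10b 10.5% with Gm45799, beside Tomm6 and Tomm6os. Tomm6os shares 41.5% of its exon bases with Prickle4 (level 30.3), 32.5% with Gm21981 and 7.4% with Tomm6, all on the opposite strand. Nkapd1 was listed under its older symbol AU019823 with a level of 726.1, and no level was found for Nr1i3, Gm45799 or Gm21981 under these symbols.

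A protein-coding gene starts head to head within 1 kb of 7 of the genes without overlapping them. The share over all genes was not computed, either for these neighbours or for the overlaps above. The closest were Timm23 and Parg, 51 bases apart, Timm17b and Pqbp1, 88 bases apart, and Timm8b and Sdhd, 98 bases apart, where Sdhd encodes a membrane subunit of succinate dehydrogenase. The levels of those neighbours were 1877 for Parg, 2501 for Pqbp1 and 4060 for Sdhd. The 41 genes lie on 18 chromosomes with at most 4 on any of them.

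Promoters of genes for mitochondrial proteins are known for sites of NRF1 and of the ETS family factor GABP. The ETS letters CCGGAAGT, searched on both strands, were in a promoter window of 8 of the 35 genes with an entry (22.9%), namely Mfn1, Phb2, Polg, Tfam, Timm10, Timm10b, Timm23 and Tomm70a. In the 9778 genes of the tables with an entry the share was 9.15%, and in all 32851 promoters of the table it was 3.89%. The shorter core CCGGAA was in a window of 57.1% of the 35 genes and of 31.1% of the tables' genes. The 35 genes have 42 windows, and a gene with several counts where any of them holds the letters. A match is a description of the letters and not a bound site.

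The windows of Phb2 and Tfam are shown, from RefSeq on GRCm38.p6, because Phb2 had the most ETS matches and Tfam is the factor that starts mitochondrial transcription. Capitals mark CCGGAAGT or its reverse complement. The Phb2 window is chr6:124712039-124712338 on the plus strand and the Tfam window is chr10:71237995-71238294 on the minus strand.
Phb2 promoter: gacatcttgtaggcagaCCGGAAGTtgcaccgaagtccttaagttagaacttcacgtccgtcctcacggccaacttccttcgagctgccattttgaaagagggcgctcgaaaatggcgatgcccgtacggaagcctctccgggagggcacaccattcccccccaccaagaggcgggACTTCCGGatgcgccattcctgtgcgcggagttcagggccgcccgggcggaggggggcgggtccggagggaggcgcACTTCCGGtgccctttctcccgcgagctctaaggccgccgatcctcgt
Tfam promoter: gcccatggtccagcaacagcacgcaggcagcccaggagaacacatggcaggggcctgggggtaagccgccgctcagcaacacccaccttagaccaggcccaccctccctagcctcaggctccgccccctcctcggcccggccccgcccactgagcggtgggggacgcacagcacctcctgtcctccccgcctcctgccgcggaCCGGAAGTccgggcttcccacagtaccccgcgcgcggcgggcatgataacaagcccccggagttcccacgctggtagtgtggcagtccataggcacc
The 3 matches of Phb2 begin 233 and 74 bases upstream and 2 bases downstream of the start, and the match of Tfam begins 47 bases upstream. Those of Mfn1, Polg and Timm23 also begin within 50 bases upstream of the start, at 44, 38 and 48 bases. That of Tomm70a begins 80 bases upstream, and those of Timm10 and Timm10b begin 16 and 35 bases downstream. Positions in other genes were not computed.

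The NRF1 letters GCGCATGC were in a window of 2 of the 35 genes (5.71%), against 5.92% of the tables' genes. Timm13 held 1 match, and Opa1 held overlapping matches on both strands, 59 and 57 bases upstream of its start. The looser form GCGCANGC was in a window of 28.6% of the 35 genes against 22.0%. CCAAT, the box bound by NF-Y, was in a window of 14 of the 35 genes (40.0%) against 42.8%. The median share of G and C was 60.5% in the members' windows and 60.0% in those of the tables' genes.

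**Figure D3:**
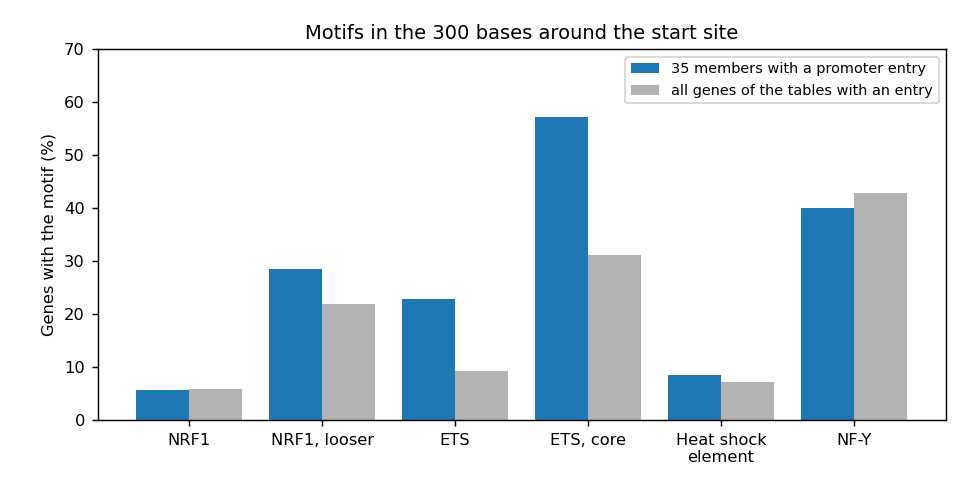
Share of genes (%) with a window of 300 bases around a start that holds each motif on either strand, for the 35 members with a promoter entry (blue) and for the 9778 genes of the tables with an entry (grey). The ETS bars differ the most, 22.9% against 9.15% and 57.1% against 31.1% for the core, while the bars of NRF1 (5.71% and 5.92%), the heat shock element (8.57% and 7.20%) and NF-Y (40.0% and 42.8%) lie close together.

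Other genes of the same processes, from 4 lists, gave a frame for these levels. Of 53 symbols listed, 50 were in the tables, with a median of 402.3 per kb (55.4th percentile) against 829.8 per kb for the 41. Other import genes (19 of 19 in the tables) had a median of 405.7 per kb and ran in level from Mtx3 (143.9) to Mtch1 (8872), a carrier-like protein of the outer membrane. Other chaperones and proteases (11 of 11) had a median of 502.3 per kb, from Hscb (472.8), a cochaperone of iron-sulphur cluster assembly, to Afg3l1 (3608) in level.

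Other dynamics and cristae genes (11 of 13) had a median of 441.0 per kb of the longest transcript and 1838 per kb of coding sequence, beside 441.0 and 857.8 for the 4 fusion and fission members, and ran in level from Chchd6 (44.3) to Fis1 (9528), a fission protein of the outer membrane. In addition, 2 listed genes stood in the tables under older symbols and were left out of the medians, Micos13 as 2410015M20Rik (level 1513) and Twnk, the helicase of mitochondrial DNA, as Peo1 (level 460.9). Micos10 is a newer symbol of Minos1, which was counted. Other genes of mitochondrial DNA (9 of 10) were lowest, with a median of 97.6 per kb (29.3rd percentile), from Top1mt (46.8), a topoisomerase, to Ssbp1 (991.3), the single-strand binding protein, in level. The Tfam and Polg median of 263.6 per kb was above that of this list. It was below the median gene per kb of the longest transcript, but per kb of coding sequence it was 855.5 against 821.5 for the median gene.

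The labelled cell type could be set beside marker genes. All 14 neutrophil markers were in the tables, with a median level of 118181, and S100a9 alone made 2.33% of the sum over genes. Ly6g, whose protein the study used to mark differentiated neutrophils, was the lowest of the 14 at 11373. Of the 6 eosinophil, basophil and mast cell markers 5 were present with a median level of 26296, led by Prg2 (268319) and Epx (142776), which encode granule proteins of eosinophils, and Fcer1a was not in the tables. Prg2 and Epx each stood above the neutrophil median level, and Ly6g stood below both. Of the monocyte and macrophage markers 5 of 6 were present (median level 6704), from Cx3cr1 at 38.6 to Ly6c2 at 26480. The erythroid and megakaryocyte markers present were 3 of 5 (Itga2b at 6521, Gata1 at 1503 and Pf4 at 38.1). Progenitor markers were present for 2 of 3 (Cd34 at 2564 and Kit at 1075), and T and B cell markers for 1 of 6 (Cd79a at 83.8). The part of these cell types in the levels of the 41 genes was not tested. Vim itself had a level of 39926 (98.7th percentile), a mean over both genotypes that checks no label.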

How the data were processed

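The 10 RNA sequencing libraries (paired reads of 150 bases) came from HoxB8-derived neutrophils and were grouped by the labels' genotype and LPS treatment. The submitters' notes name cutadapt 4.4, STAR 2.7.10b, DESeq2 1.26.0 and mm10, and the methods add 4 covariates from RUVSeq. The annotation and the strand setting are not given in the sources used here. The deposited signal is baseMean, the authors' mean of normalised counts over libraries. The other columns of the 4 tables hold the authors' fold changes, standard errors, Wald statistics, p-values and calls for the genotype and LPS comparisons, which were not used. Depth per library is therefore unknown, values carry no error, and no test was run.

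Levels were divided by transcript or coding length from GENCODE M21, matched by symbol for 12048 of 13091 genes (92.0%). Promoters came from RefSeq (GRCm38.p6), where Hspa9, Timm21, Tomm40l, Tomm7, Vdac2 and Vdac3 had no entry, and motifs were searched on both strands. Identity was computed with Biopython 1.88, and Python 3.11.15, numpy 2.4.6, pandas 2.3.3 and matplotlib 3.10.9 were used. The percentile, motif, shared-run and alignment steps were tested on simulated data. The members and lists were chosen with earlier results of these data known. All members were named, with the highest and lowest gene of each other list. Markers and genomic neighbours named were chosen after their values were seen. Protein sequence features were planned but not analysed here.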

Additional observations from a re-analysis of the deposited data

How the results depend on the processing

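The median percentile of the 41 genes stayed above 50, at 59.5 to 71.0, per kb of each of the 3 lengths and with only genes of a level of at least 100. The number above the median gene, 30 by level, was 31 or 32 per kb of the 3 lengths and 25 among genes of a level of at least 100. With coding length in place of the longest transcript, 3 ratios turned below 1: Timm17b to Timm17a (0.967), Hspd1 to Hspe1 (0.828) and Timm8b to Timm13 (0.833). Over both other lengths, 15 of 28 ratios between members moved by over 1.5-fold or turned. Percentiles of single members moved too, from the 47.7th to the 81.1st for Timm17a, the 22.7th to the 42.1st for Timm9, the 67.0th to the 89.1st for Tomm20 and the 69.7th to the 89.98th for Timm10b with coding length. The VDAC channels, the chaperones and the mitochondrial DNA genes kept places 1, 2 and 9 among the role groups under all 3 lengths. By coding length, however, the median of the mitochondrial DNA genes (855.5) nearly equalled that of the fusion and fission genes (857.8). Looser letters raised the share of members with the NRF1 motif in a promoter window to 28.6% and with the ETS motif to 57.1%, since every match of the longer letters is also a match of the looser ones. With local in place of global alignment, the identities between paralogues ran from 59.7% to 72.7%. Leaving out a library and a paired analysis were not run, since the level used is a mean over libraries and the authors' comparison columns were not used. Depth per library and the spread between libraries set limits that could not be measured.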
